A study of Homo sapiens with 6 samples.

Results

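The 39 genes described here mostly encode the factors with which human cells start, extend and end the making of a protein on the ribosome. They were compared between WT HepG2 cells and HepG2 cells in which FN3K, the gene of fructosamine-3-kinase, had been knocked out with CRISPR-Cas (FN3K KO). HepG2 is a cell line from a human liver tumour. The members were taken by gene name from the 6357 loci of the expression table, of which 4926 carry a name: names in which EIF or EEF is followed by a digit, names that begin with PABPC or GSPT, and the name ETF1, without the eIF4E-binding proteins and the eIF2 kinases. They comprise 29 initiation factors, 3 elongation factors, 3 cytoplasmic poly(A)-binding proteins, 1 release factor, EIF4A3, which works in the exon junction complex, and 2 processed pseudogenes. EEF1A1, EEF1D, EEF1G, ETF1, EIF4A1, EIF2S1, EIF3B, EIF3C and EIF3I are not among the named loci and were not analysed here.

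Each group had 3 libraries, 1 from each of 3 culture plates, so p-values measure the spread between plates, which may be technical. Both groups were grown in the same serum-containing medium and carried no other labelled treatment. The number of knockout clones behind the plates is not given in the sources used here. Values are FPKM, the fragments of a transcript divided by its length and by the library's mapped total. They are levels relative to the whole library, and the read depth behind them is unknown. A fold change is the KO minus the WT mean of log2(FPKM + 1). This scale understates the change of genes with low values. A gene was called lower or higher at a Benjamini-Hochberg adjusted p under 0.05 from limma, fitted over all 6357 loci. In bulk RNA, fewer cells of a type and less RNA per cell cannot be told apart.

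In the WT libraries FN3K itself had 27.7, 21.9 and 23.2 FPKM, against 0.782, 1.03 and 0.704 FPKM in the KO libraries. The 6 libraries summed to between 289983 and 314164 FPKM, and log2 values correlated at 0.980 to 0.983 within groups and 0.923 to 0.931 between them, across loci, which are not independent replicates. Of 10 liver markers, 9 were listed, with WT means from 17.0 to 1990 FPKM, whereas ALB was not listed by name. The summed level of these 9 was 7881 to 8001 FPKM in the WT and 14528 to 15754 FPKM in the KO libraries, with AFP, TTR, APOA1, APOB and FGB higher and HNF4A lower. None of 10 markers of fibroblasts, endothelium and blood was listed. Whether the change in liver markers had a part in the results below was not tested.

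Protein synthesis begins when eIF2 brings the initiator tRNA to the small ribosomal subunit, where eIF1, eIF1A, eIF3 and eIF5 hold the scanning complex together. The eIF4F group recruits this complex to the capped end of the mRNA, and poly(A)-binding protein joins the tail to it. After the subunits join, eEF1A delivers each aminoacyl-tRNA, with eEF1B recharging it with GTP, and eEF2 moves the ribosome on by a codon. Many mRNAs of this machinery, like those of the ribosomal proteins, are TOP mRNAs: they begin with a C and an unbroken run of pyrimidines, which ties their translation to mTOR signalling through LARP1.

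The first bases of the annotated transcripts are shown because most members that begin with a pyrimidine run were lower in KO. The lines give 15 bases before and 15 bases from the RefSeq start on GRCh38.p14, read 5′ to 3′ on the transcript's strand. Capitals mark an initial C with the C and T bases that follow it without a break. In the last 4 lines, which hold no such run, the single capital is the first base of the transcript.
EEF2 (chr19:3985449-3985478, minus strand): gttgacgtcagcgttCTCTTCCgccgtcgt
EEF1B2, downstream start (chr2:206159880-206159909, plus strand): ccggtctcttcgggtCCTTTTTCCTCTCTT
EIF2D (chr1:206612451-206612480, minus strand): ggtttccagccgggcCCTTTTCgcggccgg
EIF3D (chr22:36529152-36529181, minus strand): gcgcgcgcatgtttcCTCTTTTCCTggttt
EIF3K (chr19:38619173-38619202, plus strand): ttccgtttccaccacCTCTTCCTgttcccg
EIF4B (chr12:53006441-53006470, plus strand): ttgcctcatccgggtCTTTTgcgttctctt
EIF4A2 (chr3:186783562-186783591, plus strand): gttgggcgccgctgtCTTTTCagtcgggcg
EIF1 (chr17:41688870-41688899, plus strand): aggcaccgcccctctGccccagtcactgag
EIF1B (chr3:40309692-40309721, plus strand): tcggccattttgtgcGagaagccgcagcgc
EIF5B (chr2:99337374-99337403, plus strand): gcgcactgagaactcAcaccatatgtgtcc
EIF4A3 (chr17:80147114-80147143, minus strand): gttctcggcagcggcAcagcgaggtcggca

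The FN3K KO libraries held lower levels of most translation factors. Of the 39 members, 25 were lower and 0 were higher at the adjusted threshold, while 57.7% of all loci were called, 36.5% as lower and 21.2% as higher. At an unadjusted p under 0.05, 27 members were lower and 3 were higher, counts for which the share of all loci is not given here. A linear model adjusted for library signal as in Ballgown, without limma's pooling of variances across loci, called 14 members lower and 0 higher. Of all 6357 loci it called 521 lower and 606 higher. The median log2 fold change of the members was -0.40, beside -0.14 for all loci. In 26 members every KO library lay below every WT library, which held for 39.8% of all loci. The reverse held for 3 members and for 23.6% of all loci, and 10 members overlapped. Summed over the members, FPKM was 4795, 4782 and 4922 in the WT libraries and 3231, 3209 and 3164 in the KO libraries. The losses were mostly moderate: only PABPC1L and EIF1 passed an unadjusted p under 0.05 with a log2 fold change beyond 1 in size, as 7.63% of all loci did, 3.32% in this direction. EIF1 lay at this limit and fell short of it without WT replicate 3 or KO replicate 3 (-0.98 and -0.99), at a common 75th percentile, with centring and with the Ballgown adjustment.

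**Figure D1:**
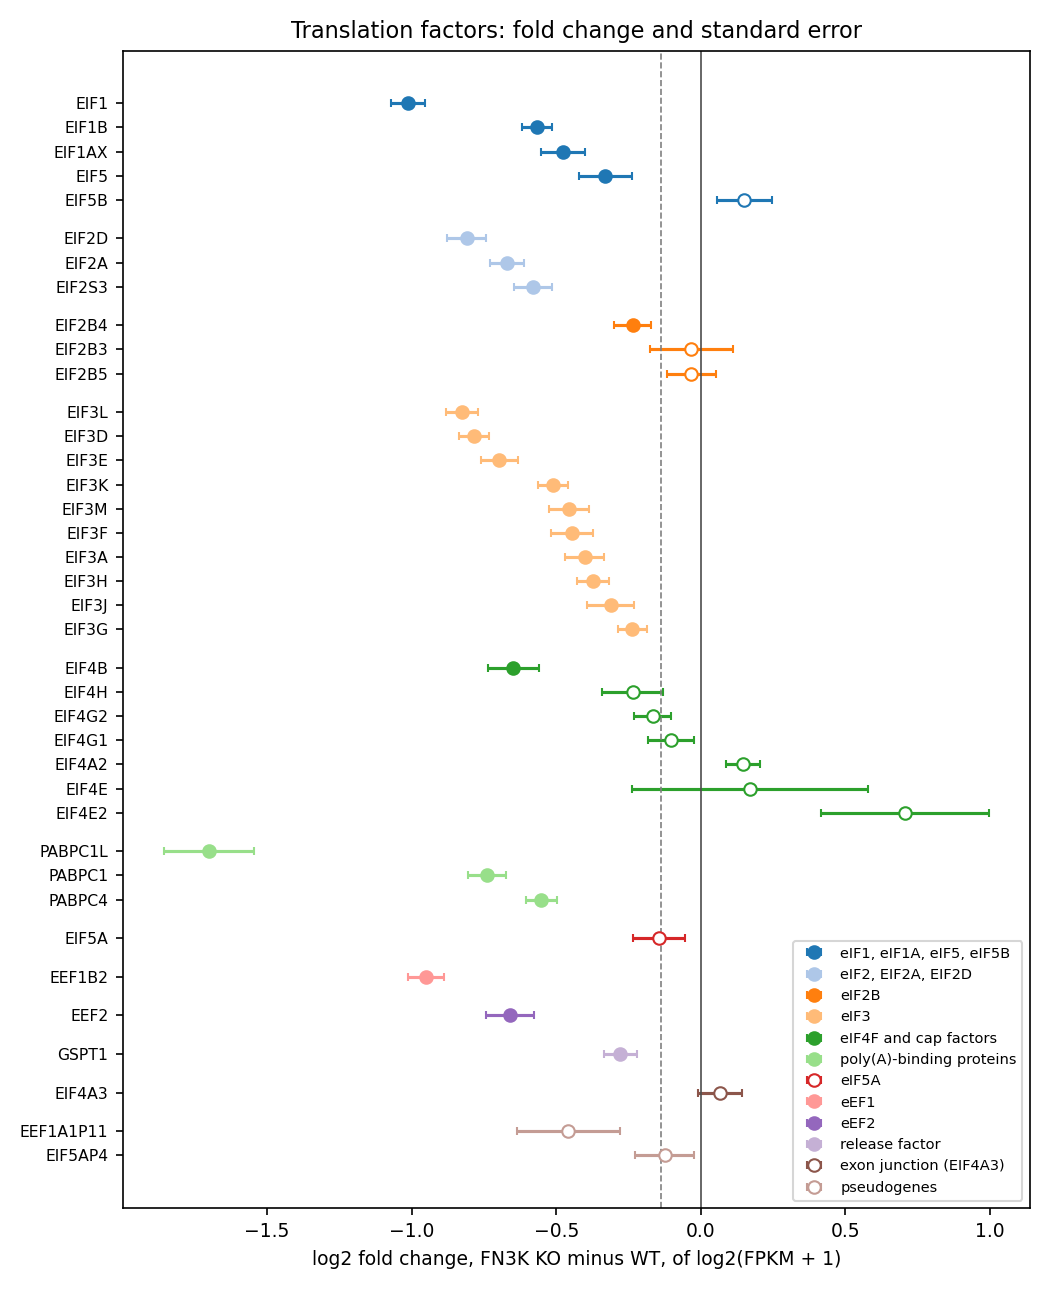
Log2 fold change (KO minus WT, horizontal axis, of log2(FPKM + 1)) and its standard error for each member, grouped by complex; filled points passed the adjusted threshold, and the dashed line is the median of all loci. The 10 eIF3 subunits, the eIF2-like factors and the poly(A)-binding proteins lie left of the dashed line, whereas most of the eIF4F and cap factors lie near 0. One paralog of EIF1AX is left out of the plot.

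The elongation factors EEF2 and EEF1B2 had the highest levels of all members. EEF2, the GTPase that drives translocation (chromosome 19 from 3976056 to 3985469, minus strand, GENCODE version 29), had 1676, 1526 and 1606 FPKM in the WT and 1004, 1050 and 987 FPKM in the KO libraries. The groups were far apart, with the KO mean at 63.2% of WT (log2 fold change -0.66, SE 0.08, adjusted p = 0.00019 from limma). EEF1B2, the nucleotide exchange subunit of eEF1B, lies on chromosome 2 from 206159585 to 206162928. Its WT libraries held 617, 650 and 639 FPKM and its KO libraries 339, 331 and 315 FPKM, or 51.6% of WT. This gave a log2 fold change of -0.95 (SE 0.06, adjusted p = 4.8e-06 from limma).

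EIF5A, the hypusine-bearing factor that helps ribosomes past difficult peptide bonds, did not pass the test. It had 221, 243 and 265 FPKM in the WT and 211, 203 and 246 FPKM in the KO libraries, and these ranges overlapped. Its log2 fold change was -0.15 (SE 0.09, adjusted p = 0.20 from limma), close to the median of all loci. The ratio of EEF2 to EIF5A was accordingly 6.64 ± 0.821 (SD, n = 3) in WT and 4.65 ± 0.585 in KO. In WT, EEF1B2 stood at 0.397 ± 0.0291 of the EEF2 level, and in KO at 0.324 ± 0.0123.

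In the limma fit the 3 elongation factors and the 29 initiation factors had called shares that were nearly alike and fold changes that overlapped. Summed elongation factors gave 2515, 2420 and 2510 FPKM in the WT libraries and 1554, 1584 and 1548 FPKM in the KO libraries, most of it from EEF2. The 29 initiation factors summed to 1654, 1753 and 1773 FPKM in WT and to 1260, 1233 and 1201 FPKM in KO. Elongation over initiation was 1.52, 1.38 and 1.42 in WT and 1.23, 1.28 and 1.29 in KO, so the ratio was lower in every KO library than in every WT library. Among the initiation factors 19 of 29 were called lower, their median log2 fold change being -0.37 and their range -1.01 to 0.71. Among the elongation factors 2 of 3 were called lower, with a median of -0.66, the value of EEF2, and a range from -0.95 to -0.15 that lay within that of the initiation factors. The likeness of the shares did not hold with the Ballgown adjustment. EEF2 and EEF1B2 kept their calls, whereas 5 of 10 eIF3 subunits, 2 of 6 scanning factors and 2 of 3 eIF2-like factors passed. No eIF2B subunit and no eIF4F or cap factor did. The medians were then -0.25 for initiation and -0.68 for elongation. Whether the 2 classes differed was not tested.

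**Figure D2:**
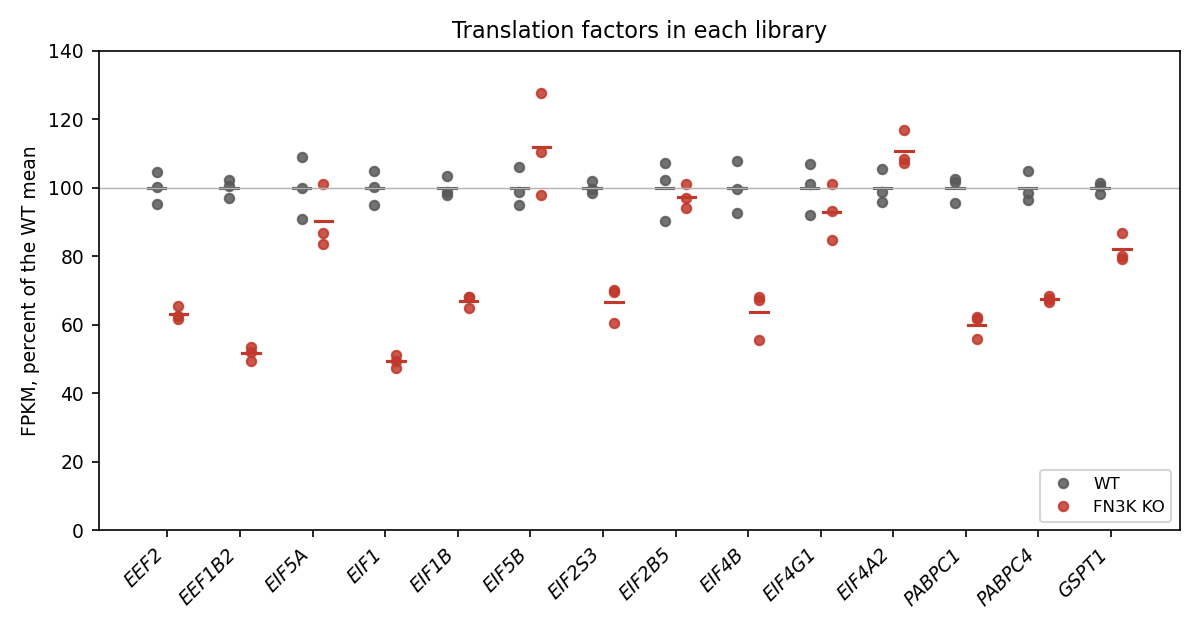
FPKM of 14 members in each library as a percentage of the WT mean (vertical axis); points are libraries, grey for WT and red for FN3K KO, and short bars are group means. EEF1B2 and EIF1 have KO means at 51.6% and 49.3% of WT, whereas EIF5A, EIF2B5 and EIF4G1 overlap between the groups and EIF4A2 lies above WT.

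Of the 6 factors that guide scanning and the choice of the start codon, 4 were called lower. EIF1, which keeps the scanning ribosome from settling on a wrong codon (chromosome 17 from 41688885 to 41692668, plus strand), had 220, 231 and 243 FPKM in WT and 114, 118 and 110 FPKM in KO. That is 49.3% of WT (log2 fold change -1.01, SE 0.06, adjusted p = 2.5e-06 from limma). The table labels this locus with a transcript that retains an intron, so its value may mix transcript forms. EIF1B, its paralog, went from 67.0, 66.5 and 70.2 FPKM in WT to 46.3, 46.3 and 44.0 FPKM in KO, a log2 fold change of -0.57 (SE 0.05, adjusted p = 3.3e-05). Since EIF1 lost more, the ratio of EIF1 to EIF1B went from 3.40 ± 0.110 (SD, n = 3) to 2.50 ± 0.0461.

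EIF1AX, the eIF1A that works beside eIF1, changed by -0.48 (SE 0.08) and EIF5, which triggers GTP hydrolysis on eIF2, by -0.33 (SE 0.09). Both passed the threshold, EIF5 with an adjusted p of 0.013 from limma that was lost without WT replicate 2 (log2 fold change -0.26). Neither passed with the Ballgown adjustment. EIF5B, the GTPase that joins the subunits at the end of initiation, had 21.7, 20.9 and 23.3 FPKM in WT and 24.3, 21.6 and 28.1 FPKM in KO. Its groups overlapped (log2 fold change 0.15, SE 0.09, adjusted p = 0.20 from limma), and it passed as higher only without KO replicate 2. One more member, a paralog of EIF1AX, is counted but not described.

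The 3 measured eIF2-like factors, which bring tRNA to the small subunit, were lower as well. Of the subunits of eIF2 itself, only EIF2S3 was among the members. EIF2S3, the GTP-binding gamma subunit of eIF2, had 83.9, 86.1 and 83.0 FPKM in WT and 59.2, 58.6 and 51.0 FPKM in KO (log2 fold change -0.58, SE 0.07, adjusted p = 0.00012 from limma). EIF2D, a single protein that can place tRNA on the ribosome without eIF2, fell from 27.4, 27.7 and 28.1 FPKM to 15.8, 16.3 and 14.2 FPKM. Its log2 fold change was -0.81 (SE 0.07, adjusted p = 1.8e-05). EIF2A, despite its name not a subunit of eIF2, changed by -0.67 (SE 0.06). With the Ballgown adjustment EIF2S3 no longer passed, whereas EIF2A and EIF2D did.

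The 3 measured subunits of eIF2B, the exchange factor that recharges eIF2 and is the target of the integrated stress response, moved little. EIF2B4 (delta subunit) had 26.7, 26.0 and 29.3 FPKM in WT and 22.9, 23.5 and 22.8 FPKM in KO, a log2 fold change of -0.23 (SE 0.06, adjusted p = 0.012 from limma), and did not pass with the Ballgown adjustment (adjusted p = 0.26). EIF2B5, the catalytic epsilon subunit, gave 9.92, 11.2 and 11.8 FPKM in WT and 11.1, 10.6 and 10.3 FPKM in KO, and did not pass (adjusted p = 0.76). Like EIF1, its locus is labelled with a transcript that retains an intron, so its value may mix transcript forms. EIF2B3 (gamma subunit) changed by -0.03 (SE 0.14, adjusted p = 0.85). The fold changes of EIF2B3 and EIF2B5 turned positive, still without passing, when libraries were scaled to a common 75th percentile or centred on the median of all loci.

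All 10 measured subunits of eIF3, the largest initiation factor and the scaffold of the 43S complex, were called lower, and in each every KO library lay below every WT library. Summed, they had 629.5, 636.0 and 644.1 FPKM in WT and 443.4, 418.0 and 444.8 FPKM in KO. The median log2 fold change was -0.45, and all 10 kept a negative fold change under every scaling tried. With the Ballgown adjustment 5 of the 10 passed.

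The size of the loss differed between subunits of the same complex. EIF3L (chromosome 22 from 37848868 to 37889407) fell most, from 70.7, 68.0 and 69.6 FPKM to 40.7, 36.9 and 38.6 FPKM, which is 55.8% of WT (log2 fold change -0.83, SE 0.06, adjusted p = 5.3e-06 from limma). EIF3E, the most abundant, had 153, 150 and 141 FPKM in WT and 93.4, 84.3 and 95.2 FPKM in KO (log2 fold change -0.70, SE 0.06, adjusted p = 3.1e-05). EIF3G fell least, from 87.6, 91.5 and 93.8 FPKM to 77.2, 75.7 and 78.2 FPKM, or 84.7% of WT (log2 fold change -0.24, SE 0.05, adjusted p = 0.0038).

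Between these lay EIF3D, a subunit that can itself bind the cap, at -0.78 (SE 0.05), EIF3K at -0.51 (SE 0.05) and EIF3M at -0.46 (SE 0.07). EIF3F changed by -0.44 (SE 0.07) and EIF3A, the backbone of the complex, by -0.40 (SE 0.07). EIF3H gave -0.37 (SE 0.06) and the loosely attached EIF3J -0.31 (SE 0.08). The ratio of EIF3E to EIF3G went from 1.63 ± 0.123 (SD, n = 3) in WT to 1.18 ± 0.0572 in KO. That of EIF3L to EIF3K, which bind each other within eIF3, went from 0.775 ± 0.0314 to 0.618 ± 0.0252.

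**Figure D3:**
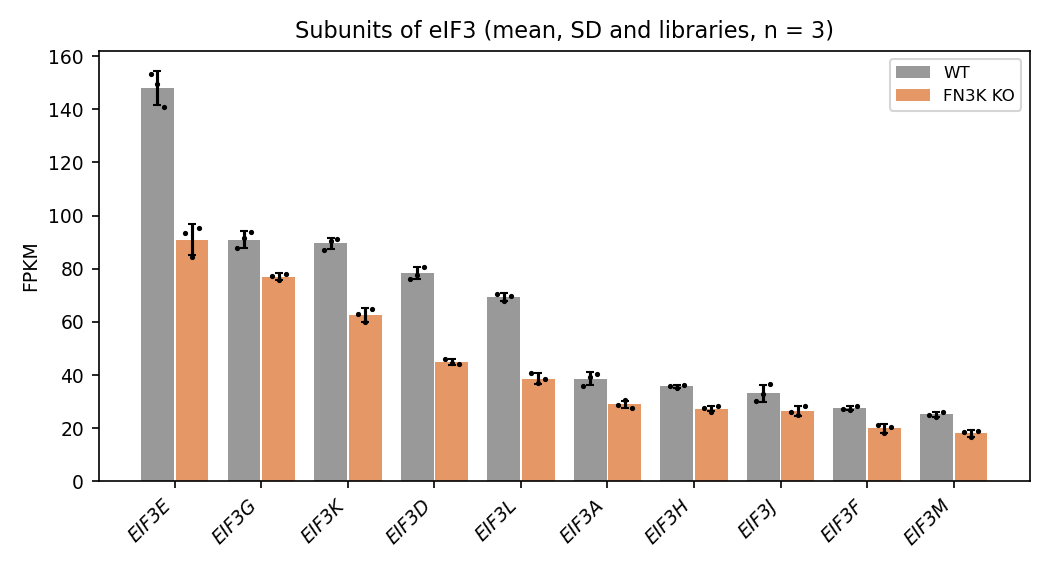
FPKM (vertical axis) of the 10 measured eIF3 subunits in WT (grey) and FN3K KO (orange); bars are means, error bars SD and dots the 3 libraries of each group. The KO bar is lower for each subunit, from 55.8% of WT in EIF3L to 84.7% in EIF3G.

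Of the 7 eIF4F and cap factors, 1 was called lower, and their median log2 fold change of -0.10 was near that of all loci. Both values rested on single libraries: without WT replicate 1, 3 were called lower with a median of -0.22, without KO replicate 2, 2 were called lower with a median of -0.16, and the median was -0.17 without KO replicate 1, -0.06 without WT replicate 3 and -0.04 without KO replicate 3. With the Ballgown adjustment 0 passed and the median was 0.10. EIF4B, an activator of the eIF4A helicase, was the one called lower. It had 137, 159 and 147 FPKM in WT and 99.3, 101 and 82.2 FPKM in KO (log2 fold change -0.65, SE 0.09, adjusted p = 0.00034 from limma), a call that the Ballgown adjustment removed. EIF4H, a related activator, changed by -0.24 (SE 0.10, adjusted p = 0.082), with overlapping libraries.

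The scaffold EIF4G1, which bridges cap, helicase and ribosome, had 53.0, 58.1 and 61.5 FPKM in WT and 53.6, 58.1 and 48.7 FPKM in KO, and did not pass (log2 fold change -0.10, SE 0.08, adjusted p = 0.28 from limma). EIF4G2, a related scaffold that lacks the eIF4E site, had 127, 142 and 143 FPKM in WT and 126, 124 and 117 FPKM in KO. The groups did not overlap, but by a margin of under 1 FPKM, and its adjusted p was 0.051 (log2 fold change -0.17, SE 0.06). EIF4G1 over EIF4G2 was 0.419 ± 0.0111 (SD, n = 3) in WT and 0.437 ± 0.0281 in KO.

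EIF4A2, a helicase of the eIF4F complex, was higher in every KO library, unlike the other members with a pyrimidine start. Its WT libraries held 55.5, 57.1 and 61.0 FPKM and its KO libraries 67.7, 62.7 and 62.1 FPKM. The adjusted p was 0.062 from limma (log2 fold change 0.15, SE 0.06). It passed as higher when libraries were centred on the median of all loci or scaled to a common 75th percentile, and without WT replicate 3. The locus holds 5 snoRNA genes and overlaps genes on the opposite strand, as do EEF1B2, EIF3L and other members. The strand of the libraries is not stated, so reads from overlapping genes cannot be told apart.

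Both cap-binding proteins were scarce and variable. EIF4E had 1.12, 3.95 and 4.77 FPKM in WT and 6.03, 2.47 and 2.53 FPKM in KO, a spread larger than the difference between the means (log2 fold change 0.17, SE 0.41, adjusted p = 0.74 from limma). The sign rested on single libraries: without WT replicate 1 the log2 fold change was -0.28, and without KO replicate 1 it was -0.17. EIF4E2, a homolog that binds the cap but represses translation, had 2.03, 1.08 and 1.95 FPKM in WT and 3.22, 2.17 and 5.04 FPKM in KO. All KO values were higher, yet the adjusted p was 0.063 from limma (log2 fold change 0.71, SE 0.29). EIF4E2 passed as higher with centring, with the replicate number as a block and without KO replicate 2.

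The cytoplasmic poly(A)-binding proteins were all called lower, also with the Ballgown adjustment. PABPC1, the main one, had 472, 440 and 469 FPKM in WT and 286, 257 and 284 FPKM in KO (log2 fold change -0.74, SE 0.07, adjusted p = 2.8e-05 from limma). PABPC4, an inducible relative, went from 48.8, 47.7 and 51.9 FPKM to 33.8, 33.4 and 33.0 FPKM (log2 fold change -0.55, SE 0.05, adjusted p = 5.0e-05). Their ratio was 9.31 ± 0.338 (SD, n = 3) in WT and 8.25 ± 0.479 in KO.

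PABPC1L, a relative best known from oocytes (chromosome 20 from 44910062 to 44959035), showed the deepest loss of any member. Its libraries held 7.33, 10.9 and 9.75 FPKM in WT and 2.06, 2.14 and 2.24 FPKM in KO, or 23.0% of WT (log2 fold change -1.70, SE 0.16, adjusted p = 3.3e-05 from limma). GSPT1, the GTPase eRF3a that acts with eRF1 at stop codons, fell less, from 37.7, 38.9 and 38.5 FPKM to 30.4, 33.4 and 30.7 FPKM. Its log2 fold change was -0.28 (SE 0.06, adjusted p = 0.0032), a call that was lost with the Ballgown adjustment (adjusted p = 0.11).

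EIF4A3, which resembles the initiation helicases but marks exon junctions, did not pass the test. Its libraries held 34.8, 40.3 and 39.8 FPKM in WT and 37.3, 43.1 and 40.1 FPKM in KO, and overlapped (log2 fold change 0.07, SE 0.08, adjusted p = 0.47 from limma). The 2 processed pseudogenes share sequence with their parent genes, so reads may have been split between them. EEF1A1P11 had 3.71, 5.26 and 4.87 FPKM in WT and 2.92, 3.76 and 2.58 FPKM in KO (adjusted p = 0.053). EIF5AP4 had 22.1, 26.3 and 24.4 FPKM in WT and 24.7, 18.9 and 23.1 FPKM in KO (adjusted p = 0.32), overlapping as EIF5A did.

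The members were then set against the start of their transcripts, a feature chosen after the values had been seen. A start counted as a pyrimidine start when the first base was C and at least 4 bases after it were each C or T, on the transcript's strand only. For genes with several annotated starts, any one sufficed, as in EEF1B2, whose upstream start begins with A. The RefSeq table held a start for 30 of the 39 members. It held none for EIF3A, EIF3E, EIF3G, EIF3H, EIF3L, PABPC1, PABPC4 and the pseudogenes. Of the 30, 11 (36.7%) had a pyrimidine start, against 4.07% of the 35116 promoters in the table and 8.88% of the 3726 named loci with a start.

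Of the 11 members with a pyrimidine start, 10 were called lower, with a median log2 fold change of -0.65. These were EEF2, EEF1B2, EIF2A, EIF2D, EIF2S3, EIF3D, EIF3F, EIF3K, EIF3M and EIF4B, and EIF4A2 was the exception. Of the 19 members with another start, 8 were called lower and the median was -0.17, or 10 with a median of -0.25 without WT replicate 1. With the Ballgown adjustment 6 of the 11 and 3 of the 19 passed, EIF2S3, EIF3F, EIF3M and EIF4B losing their calls in the first group. The feature did not sort the members completely, since EIF1, EIF1B, EIF1AX and PABPC1L fell without it. In EIF1 and EIF1B the first base is a G, as printed above.

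Members with a pyrimidine start were also more abundant, with a median WT mean of 78.2 FPKM against 29.6 FPKM for the others. Among members with another start and a WT mean of at least 25 FPKM, 7 of 12 were called lower with a median of -0.26. With at least 6 pyrimidines after the C, 9 of 9 members were lower (median -0.66). When the run could begin within 2 bases of the start, 11 of 14 were lower (median -0.54). With the Ballgown adjustment 6 of the 9 and 6 of the 14 passed. A list of textbook TOP mRNAs, which partly repeats these genes, had 7 members in the table, EEF1B2, EEF2, EIF3E, EIF3F, EIF3H, EIF4B and PABPC1. All 7 were called lower, 5 of them with the Ballgown adjustment too, with a median of -0.66.

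The same split was seen in part outside the translation factors. Among cytosolic ribosomal protein genes, the best-known TOP mRNAs, 55 of 60 loci were lower and 1 was higher (median log2 fold change -0.77). Of the 60, 44 were called lower with the Ballgown adjustment. Those with a pyrimidine start were lower by limma in 35 of 36 cases (median -0.79), and those with another start in 11 of 15 (median -0.68). The remaining ribosomal protein loci had no start in the RefSeq table. Among named loci that were neither, 47.2% of 284 with a pyrimidine start and 34.6% of 3361 with another start were called lower, with medians of -0.23 and -0.10. With the Ballgown adjustment the shares were 13.0% and 6.87%. At a WT mean of at least 25 FPKM the shares from limma were 57.0% of 107 and 44.0% of 943. These counts are descriptions, and a run of letters at an annotated start is not a measured start site.

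**Figure D4:**
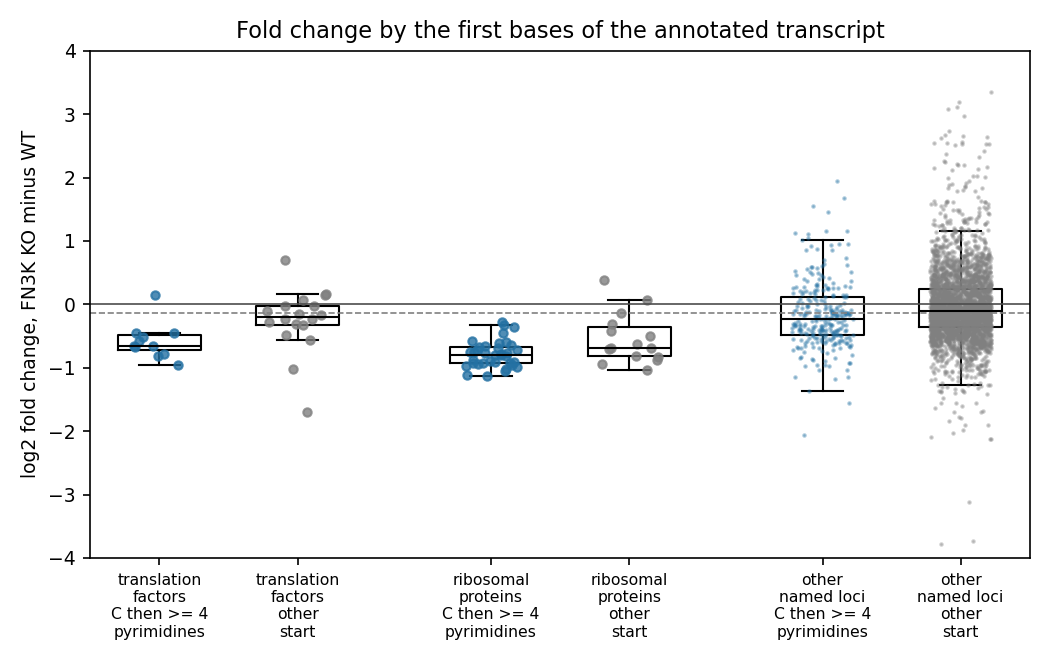
Log2 fold change (KO minus WT, vertical axis) of translation factors, ribosomal protein genes and other named loci, split by whether the annotated transcript starts with C and at least 4 further pyrimidines; each point is a locus, boxes show quartiles with the median, and the dashed line is the median of all loci. The translation factors with a pyrimidine start have a median of -0.65 and those with another start -0.17, while in the other named loci the medians are -0.23 and -0.10.

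Some translation factor genes carry snoRNA genes in their introns. The 9 members with a snoRNA gene inside, EEF2 and EIF4A2 among them, had 6 called lower (median log2 fold change -0.40), or 3 with the Ballgown adjustment. The other 30 had 19 called lower (median -0.41), so the members did not divide along this line.

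Genes that regulate these factors or work beside them were counted in the same way. Of 30 such genes on a list of regulators and partners, 19 were in the table. By limma 11 were called lower and 0 higher, both at the adjusted threshold and at an unadjusted p under 0.05. Of all loci, 36.5% were lower and 21.2% higher at the adjusted threshold. The median log2 fold change of the 19 was -0.27. The Ballgown adjustment left 3 of them lower and 0 higher, beside 521 lower and 606 higher among all 6357 loci. TPT1, a classic TOP mRNA, fell from 428, 395 and 388 FPKM to 213, 184 and 217 FPKM (log2 fold change -0.98, SE 0.08, adjusted p = 1.3e-05 from limma). EIF4EBP1, which blocks eIF4E when mTOR is inactive, fell from 156, 154 and 170 FPKM to 104, 115 and 116 FPKM (log2 fold change -0.52, SE 0.06, adjusted p = 0.00019).

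Both regulatory subunits that direct a phosphatase to eIF2, PPP1R15A at -0.56 (SE 0.10) and PPP1R15B at -0.46 (SE 0.09), were called lower. Of the kinases that phosphorylate eIF2, EIF2AK4 (adjusted p = 0.10) and EIF2AK1 (adjusted p = 0.15) did not pass. DHPS, the first enzyme of hypusine synthesis on eIF5A, was lower at -0.55 (SE 0.07), whereas DOHH, the second, did not pass (adjusted p = 0.13). The ribosome recycling factor ABCE1 changed by -0.49 (SE 0.07). The poly(A)-binding protein partners PAIP1 at -0.30 (SE 0.07) and PAIP2 at -0.27 (SE 0.06) were called lower. TRMT112, DENR and EEFSEC were also called lower, between -0.34 and -0.21, and LARP4, MCTS1, DDX3X, PDCD4 and MKNK2 did not pass.

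The factors of mitochondrial protein synthesis, which use a separate machinery, were represented by 4 of the 9 genes listed. Of these 1 was called lower, which is too few to set beside the 36.5% of all loci, and their median log2 fold change was -0.25. TUFM, the mitochondrial counterpart of eEF1A, went from 144, 144 and 149 FPKM to 118, 120 and 119 FPKM (log2 fold change -0.29, SE 0.05, adjusted p = 0.0011 from limma). GFM1 and GFM2 had adjusted p-values of 0.60 and 0.090 from limma, GFM2 being lower in every KO library, and MTRF1L did not pass either.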

How the data were processed

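RNA of 6 HepG2 cultures (3 WT, 3 FN3K KO) had been enriched on oligo(dT) beads and sequenced. The authors aligned reads using HISAT2, built and measured transcripts in StringTie (2.0.6, on GRCh38.p5, per the submitters' processing notes) and deposited FPKM per locus. FPKM carry no read counts, so no counting interval was computed. Columns of the authors' comparison were not used.

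Log2(FPKM + 1) of all 6357 loci was compared with limma 3.58.1 in R 4.3.3 (lmFit, eBayes with a variance trend), KO minus WT, with Benjamini-Hochberg adjustment over all loci. The study's methods use Ballgown, and its library adjustment was tried as an alternative. That fit used ordinary t-tests without limma's pooling of variances, and its covariate left few degrees of freedom. The limma test was run on simulated data with independent noise, in which few loci changed, equally up and down. Far more loci were called in the real data, mostly as lower, so that run does not vouch for these calls. For single values the exact permutation test cannot go below 0.10 with 3 libraries against 3, and FN3K reached that (p = 0.10, two-sided exact permutation test). Positions of all 39 members came from GENCODE version 29 through the transcript identifiers, and starts from RefSeq promoters on GRCh38.p14 (250 bases before to 50 after the start), matched by symbol. Tables and plots were made in Python 3.11.15 (matplotlib 3.10.9, numpy 2.4.6, pandas 2.3.3, scipy 1.17.1).

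Members and gene lists were chosen with earlier results of these data known. In each functional group, values per library were given for the member with the highest mean FPKM and those with the highest and lowest fold changes, except 1 paralog of EIF1AX, and also for members past the fold limit and for both genes of the pairs EIF1 and EIF1B, EIF4E and EIF4E2, EIF4G1 and EIF4G2, and PABPC1 and PABPC4. EIF5B and EIF4A2 were added after their values were seen. Same-numbered WT and KO libraries did not deviate together (r = 0.0096, 0.0061 and 0.0458 across loci). The fit was repeated with 0.1 as pseudocount, with loci of at least 1 FPKM on average, with scaling to a shared 75th percentile, with centring on the median of all loci, without the trend, with the Ballgown adjustment, with the replicate number as a block and without each library. The 2 other rules for pyrimidine starts were chosen after seeing the data.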

Additional observations from a re-analysis of the deposited data

How the results depend on the processing

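Of 3670 loci called (2322 lower, 63.3% of the calls), the Ballgown adjustment left 1127, of which 521 (46.2%) were lower. Among the members it left 14, all lower, where 25 had been called; the initiation median became -0.25 (from -0.37). It removed the calls of EIF1AX, EIF2B4, EIF2S3, EIF3A, EIF3F, EIF3G, EIF3J, EIF3M, EIF4B, EIF5 and GSPT1, and the cause was not tested. This fit also lacked limma's pooling of variances and left few degrees of freedom. A lost call therefore need not mean a smaller fold change. The eIF3 median was -0.50 in it and -0.45 in the main fit, while the calls fell from 10 to 5. Centring on the median of all loci moved the elongation median from -0.66 to -0.59 and kept 25 members lower with 3 higher; the common 75th percentile gave 25 lower and 2 higher. Fold changes changed sign only in members that had not passed: EIF2B3 (0.0091 at the common 75th percentile, 0.036 centred, 0.25 with the Ballgown adjustment), EIF2B5 (0.011, 0.037 and 0.10) and, with the Ballgown adjustment, EIF4G1 (0.092) and EIF4H (0.095). Without each library in turn, EIF2B3 ranged from -0.20 to 0.056, EIF2B5 from -0.097 to 0.016 and EIF4E from -0.28 to 0.45. These runs called 3090 to 3575 loci and 25 to 29 members (24 to 28 lower), with medians of -0.39 to -0.36 for initiation and -0.69 to -0.63 for elongation. The replicate numbers do not mark pairs, and with the number as a replicate block 3707 loci were called, with 26 members lower and 1 higher (EIF4H and EIF4E2 gained). FPKM without counts or depth leaves the precision of scarce members such as EIF4E and EIF4E2 unknown beyond the spread of 3 libraries.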
